A study of Mus musculus with 6 samples.

Results

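The mouse microRNAs mmu-miR-463, mmu-miR-470, mmu-miR-871, mmu-miR-878, mmu-miR-880, mmu-miR-881, mmu-miR-883a and mmu-miR-883b were followed in small RNA libraries of mature sperm. They were chosen by name, with either arm of each hairpin included. The table of mature microRNAs (miRNAs) held 12 features for these 8 names, out of 778 features in all, and none of the 12 was a combined row. The sperm came from the cauda epididymis, where mature sperm are stored, of 8-week-old male C57BL/6 mice, and the series description names the background as C57BL/6J. One group consisted of 3 samples from mice labelled normal and the other of 3 samples from mice labelled as depressed after stress (the normal and stress samples below). No genetic change or drug is named for either group, and the labels give neither the kind nor the length of the stress. Nothing in the labels says that the replicates of a group were separate animals or pools, so each p-value refers only to how much these libraries vary, and that variation may be technical. The comparison addresses whether sperm of stressed, depressed-like males carried a different amount of these miRNAs.

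A miRNA is cut from a hairpin precursor, and either its 5′ arm (5p) or its 3′ arm (3p) is loaded into an Argonaute protein to repress mRNAs that pair with it. Pairing rests mostly on the seed, which is bases 2 to 8 of the mature miRNA. The 8 miRNAs belong to a rapidly evolving X-linked cluster that is known for preferential expression in the testis, in particular in germ cells, where members are present during meiosis although most X-linked protein-coding genes are then silent. Sperm reach the epididymis with part of their testicular small RNA and acquire further small RNA there, so both origins can be present in cauda sperm.

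The mature sequences of the members with more than a few reads, and of the near-copies that bear on their counts, are printed from the deposited table because the seed decides which targets each could have. The seed is in capitals, each line runs 5′ to 3′, and the letters were identical to the RefSeq entries of the same name for 12 of the 12 member features.
miR-881-3p: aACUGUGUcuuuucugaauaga
miR-871-3p: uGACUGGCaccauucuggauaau
miR-871-5p: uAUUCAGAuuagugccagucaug
miR-743a-5p: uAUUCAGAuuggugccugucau
miR-470-5p: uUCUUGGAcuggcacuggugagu
miR-878-5p: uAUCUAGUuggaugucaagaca
miR-880-3p: uACUCCAUccucucugaguaga
miR-463-5p: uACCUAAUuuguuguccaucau
miR-883a-3p: uAACUGCAacagcucucaguau
miR-883b-3p: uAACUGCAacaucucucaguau

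The 12 member features had 11 different seeds, so neighbours in one cluster mostly do not share a seed. miR-883a-3p and miR-883b-3p had the same seed and differed by the single substitution G12U, counted from the 5′ end with the miR-883a-3p base first. Outside the 8 names, the only feature of the table with a member's seed was miR-743a-5p, a miRNA of the same X-linked cluster. Over 22 bases it differed from miR-871-5p by A11G and A17U, with the miR-871-5p base first. miR-470-5p and miR-871-3p had different seeds but shared the 9-base run GACUGGCAC, which began at base 7 of miR-470-5p and at base 2 of miR-871-3p and thus held the whole seed of the latter. At their 3′ ends, miR-881-3p shared the 9-base run CUGAAUAGA with miR-743b-3p, and miR-880-3p shared CUGAGUAGA with miR-743a-3p, both from the same cluster. Runs this long were not particular to the cluster, since miR-881-3p also shared 9 bases with miR-330-5p and miR-470-5p shared 10 with miR-183-5p.

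In RefSeq (build GRCm38.p6) the 8 hairpins lie on the minus strand of the X chromosome within 33.3 kb, from Mir883a at the low end (chrX:66780758-66780833) to Mir470 at the high end (chrX:66813951-66814025). Mir878 (chrX:66801508-66801585) and Mir881 (chrX:66801944-66802021) are adjacent, and Mir871 is at chrX:66810428-66810504. No hairpin overlaps an exon or intron of another annotated gene in GENCODE, so the 8 are intergenic by this annotation, and the nearest protein-coding gene on the low side is Slitrk2, 119.4 kb away. The build used for the deposited counts is not given in the sources used here, and these places come from RefSeq alone. The map of the hairpins shows that the low and the high miRNAs, judged by the leading arm of each hairpin, are not interleaved. Mir883a, Mir883b, Mir463 and Mir880, with the low leading arms, lie up to 19.8 kb from the low end. Mir878, Mir881, Mir871 and Mir470, with the high leading arms, lie beyond them.

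**Figure D1:**
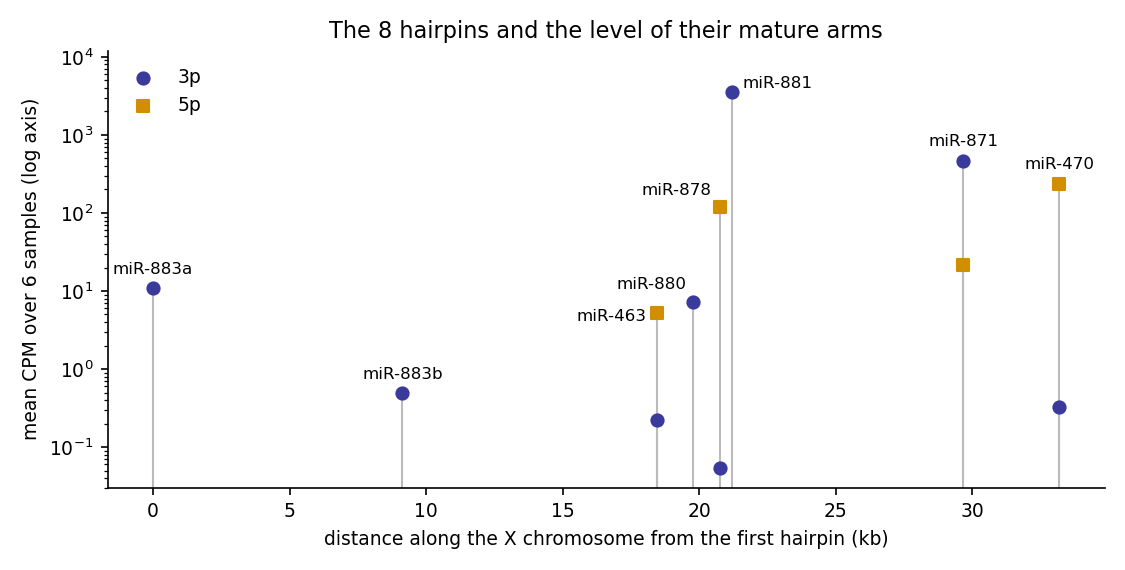
Mean level of each mature arm in counts per 1000000 miRNA reads over the 6 samples (log axis) against the distance of its hairpin from Mir883a in kb, with circles for 3p and squares for 5p arms. miR-881-3p at 3553 and miR-878-5p at 118.7 come from adjacent hairpins, and miR-883b-3p, at 0.488, is the lowest of the leading arms. For miR-880, miR-881, miR-883a and miR-883b only the 3p arm was listed.

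The samples held 1010203 to 3067208 miRNA reads, and normal replicate 3, with 3067208, was the deepest. A single read was therefore worth 0.326 to 0.990 counts per 1000000 miRNA reads (CPM), and 3 reads, taken as the limit of detection, 0.978 to 2.97 CPM. All member features are 22 or 23 bases long, so their reads can be set side by side without a length correction. Together they took 4604.5, 6511 and 11877 reads in normal replicates 1 to 3 and 4557, 6910 and 3724 reads in stress replicates 1 to 3.

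One miRNA made up most of this sum. miR-881-3p took between 78.5% and 82.5% of the member reads in every sample and ranked 24th of the 778 features by mean CPM. miR-871-3p ranked 62nd, miR-470-5p 86th, miR-878-5p 111th, miR-871-5p 183rd and miR-883a-3p 226th. These first 6 stood in this order in 6 of 6 samples. Further down the order did not hold, since miR-883a-3p exceeded miR-880-3p in 4 samples only and miR-880-3p exceeded miR-463-5p in 4. Most hairpins with both arms listed were strongly one-armed. Summed over 6 samples, the hairpin of miR-470 gave 2060 reads of its 5p and 2 of its 3p arm, that of miR-878 gave 973 of 5p and 1 of 3p, and that of miR-463 gave 44 of 5p and 2 of 3p. miR-883b-3p had 4 reads in all. The other arms of miR-880, miR-881, miR-883a and miR-883b were not among the member features of the table.

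To compare the groups, edgeR was fitted over the whole table. It tested 236 features with enough reads in at least 1 group's worth of samples. Scaling was by TMM, which sets the typical miRNA to no change, and p-values were adjusted over all 236. Of the 12 member features 6 passed this filter on low counts. Values below are TMM-scaled CPM, and each change is the log2 fold change, stress minus normal, with its standard error (SE). The 4 abundant members had lower means in stress samples, and miR-871-3p was the only member past the threshold of 0.05.

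miR-871-3p stood at 739.8, 1028 and 499.9 CPM in normal replicates 1 to 3 and at 314.5, 259.5 and 284.0 CPM in stress replicates 1 to 3. The groups did not overlap, and the lowest normal sample was replicate 3. It fell by 1.40 ± 0.31 (SE) on the log2 scale (edgeR adjusted p = 0.016), from a mean of 756.1 ± 264.6 (SD, n = 3) to 286.0 ± 27.6 CPM. The call was lost without stress replicate 2 (edgeR adjusted p = 0.059) and without stress replicate 3 (edgeR adjusted p = 0.053), while the fold change stayed between −1.60 and −1.10 whichever sample was left out.

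miR-881-3p, by far the most abundant member, was at 4321, 6819 and 3641 CPM in normal and at 2752, 3013 and 2107 CPM in stress replicates 1 to 3. Each stress sample was below each normal sample, with normal replicate 2 far above the rest. Its change of −0.91 ± 0.29 did not pass (edgeR adjusted p = 0.051). The value lay close to the threshold, and without normal replicate 3 it passed (log2 fold change −1.06, edgeR adjusted p = 0.033). Without normal replicate 2 the change of miR-881-3p was −0.58 (edgeR adjusted p = 0.15), more than 1.5 times smaller.

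miR-470-5p was at 263.0, 431.4 and 242.0 CPM in normal and at 183.2, 214.6 and 158.9 CPM in stress replicates. The groups did not overlap, normal replicate 2 was again highest, and the change of −0.75 ± 0.30 did not pass (edgeR adjusted p = 0.12). miR-878-5p was at 148.2, 251.2 and 94.1 CPM in normal and at 93.5, 89.8 and 82.0 CPM in stress replicates. Its groups were separated by a margin of less than 1 CPM, between normal replicate 3 and stress replicate 1, and its change of −0.88 ± 0.35 did not pass (edgeR adjusted p = 0.12). For miR-878-5p the change was −0.42 without normal replicate 2 and −1.15 without normal replicate 3, and in the latter case it passed (edgeR adjusted p = 0.029). For miR-470-5p the change was −0.42 without normal replicate 2.

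The less abundant tested members had higher means in stress samples. miR-871-5p, the minor arm of its hairpin, was at 19.1, 14.5 and 10.6 CPM in normal and at 20.0, 35.9 and 18.7 CPM in stress replicates. Normal replicate 1 lay above stress replicate 3, so the groups overlapped, and the change of 0.82 ± 0.42 did not pass (edgeR adjusted p = 0.19). Its change was 0.44 without stress replicate 2, the highest sample. miR-883a-3p was at 3.59, 3.95 and 8.72 CPM in normal and at 8.90, 19.0 and 12.2 CPM in stress replicates. Normal replicate 3 and stress replicate 1 nearly touched, 2 of the normal samples rested on 3 reads each, and the change of 1.14 ± 0.52 did not pass (edgeR adjusted p = 0.16). Leaving out normal replicate 3 moved the change of miR-883a-3p to 1.85 (edgeR adjusted p = 0.098).

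Read against the whole table, 1 of the 6 tested members was called lower, beside 10.2% of all tested features, and 0 were called higher, beside 2.54%. Calls in either direction made up 12.7% of all tested features. By edgeR, 4 of the 6 were lower with an unadjusted p under 0.05, beside 19.1% of all tested features, and 0 were higher, beside 13.1%. DESeq2 called 2 lower (miR-871-3p and miR-881-3p), beside 12.7%, and 0 higher, beside 7.2%. The groups did not overlap for 5 of the 6, beside 39.4% of all tested features. These 5 include miR-883a-3p, which passed the filter on low counts only through the stress samples. The median change of the 6 was −0.81, against 0.00063 over all tested features. The plot of levels by sample shows the 4 abundant members below, and the 2 scarce ones above, the normal means.

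**Figure D2:**
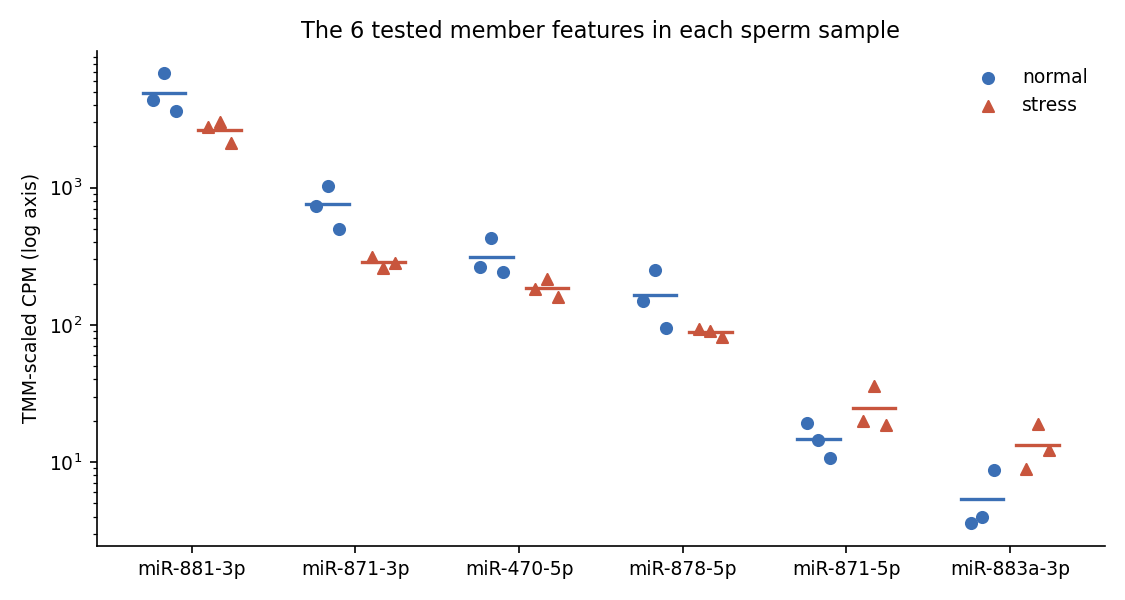
TMM-scaled CPM (log axis) of the 6 tested member features in the 3 normal (circles) and 3 stress samples (triangles), with a line at each group mean. miR-871-3p falls from a mean of 756.1 to 286.0 CPM without overlap, and miR-871-5p from the same hairpin lies at 14.7 in normal and 24.9 CPM in stress samples, with overlap.

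The 6 features that did not pass the filter held few reads. miR-880-3p had 6, 10 and 16 reads in normal and 8, 13 and 8 reads in stress replicates, which is 5.22 to 8.99 CPM of the miRNA total in normal and 7.65 to 8.54 in stress samples. The exact 95% counting interval of the lowest of these, normal replicate 3, ran from 2.98 to 8.47 CPM. The groups overlapped, and miR-880-3p was not tested in the edgeR fit above, so whether its level differed stays undecided. miR-463-5p had 2, 1 and 6 reads in normal and 1, 23 and 11 reads in stress replicates. Stress replicates 2 and 3, at 15.1 and 10.9 CPM of the total, stood above the 4 other samples, all at 1.96 CPM or less, while stress replicate 1 was among the lowest. miR-883b-3p had 1 and 3 reads in stress replicates 1 and 2, miR-470-3p 1 read each in stress replicates 1 and 3, miR-463-3p 1 read each in normal replicate 3 and stress replicate 3, and miR-878-3p 1 read in normal replicate 3. These 4 features were at or under the limit of 3 reads in every sample, and no fold change is given for them. The intervals cover counting error only, since the reads carry no molecular identifiers that are described in the labels.

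Ratios between members of the same sample do not depend on how libraries are scaled. The 4 abundant members (miR-881-3p, miR-871-3p, miR-470-5p and miR-878-5p) form 6 pairs, and each was tested with an exact two-sided permutation test on the log2 ratio, which cannot go below p = 0.1 with 3 samples against 3. This set of tests was chosen after the values had been seen. For every 100 reads of miR-881-3p there were 17.1, 15.1 and 13.7 reads of miR-871-3p in normal and 11.4, 8.61 and 13.5 in stress replicates. The groups did not overlap, although normal replicate 3 and stress replicate 3 were close, and the log2 ratio was 0.47 lower in stress samples (a difference of −0.47, exact permutation p = 0.1, adjusted over 6 pairs p = 0.15).

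miR-871-3p was also lower against the other abundant members. For every 100 reads of miR-871-3p there were 35.5, 41.9 and 48.4 reads of miR-470-5p in normal and 58.3, 82.7 and 55.9 in stress replicates, a log2 difference of 0.63 (exact permutation p = 0.1, adjusted p = 0.15). The same count for miR-878-5p was 20.0, 24.4 and 18.8 in normal and 29.7, 34.6 and 28.9 in stress replicates, a log2 difference of 0.56 (exact permutation p = 0.1, adjusted p = 0.15). Neither comparison overlapped between the groups. These pairs and the pair with miR-881-3p all contain miR-871-3p, so they are not independent results. Among single tested features 39.4% did not overlap, and for pairs of features the share was not computed. The 3 other abundant members kept closer ratios among themselves. miR-470-5p stood at 6.09, 6.33 and 6.65 reads for every 100 of miR-881-3p in normal and at 6.66, 7.12 and 7.54 in stress replicates, a log2 difference of 0.16 without overlap (exact permutation p = 0.1, adjusted p = 0.15). miR-878-5p stood at 3.23 ± 0.58 (SD, n = 3) for every 100 of miR-881-3p in normal and at 3.42 ± 0.45 in stress samples (exact permutation p = 0.7, n = 3 per group), with overlap. Its ratio to miR-470-5p overlapped as well (exact permutation p = 0.6). The plot of members relative to miR-881-3p shows miR-871-3p lower in stress samples, miR-470-5p slightly higher and miR-878-5p overlapping.

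**Figure D3:**
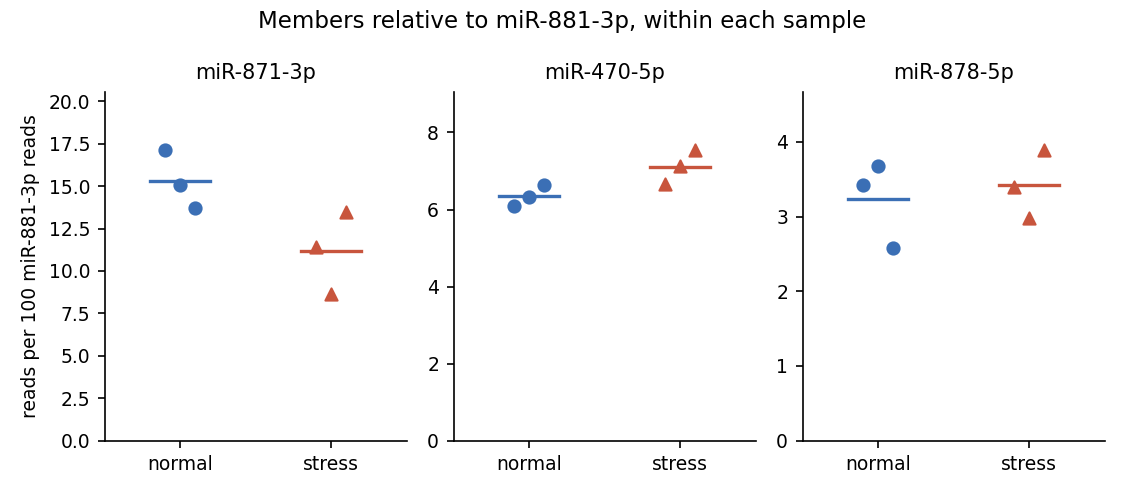
Reads of miR-871-3p, miR-470-5p and miR-878-5p for every 100 reads of miR-881-3p in each of the 3 normal (circles) and 3 stress samples (triangles), with a line at each group mean and each vertical axis starting at 0. miR-871-3p goes from a mean of 15.3 to 11.2, miR-470-5p from 6.35 to 7.11, and miR-878-5p overlaps between the groups.

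The miR-871 hairpin was the single member precursor with sizeable reads from both arms, and its balance differed between the groups. The 5p arm made up 2.44%, 1.39% and 2.08% of the miR-871 reads in normal replicates 1 to 3 and 5.99%, 12.2% and 6.18% in stress replicates 1 to 3. The lowest stress sample lay above the highest normal sample, and stress replicate 2 was highest. The mean went from 1.97% ± 0.54 (SD, n = 3) to 8.11% ± 3.51, and the log2 ratio of 5p to 3p reads was higher by 2.07 (exact permutation p = 0.1 with n = 3 in each group, which is the lower limit of the test, and adjusted p = 0.30 over the 3 member precursors with at least 30 reads in every sample). These shares rest on 11 to 68 reads of the 5p arm and 395 to 1318 reads of the 3p arm. The exact 95% counting interval, from counts rounded to whole reads, was 1.45% to 4.07% for normal replicate 1 and 3.98% to 8.59% for stress replicate 1, so these nearest samples overlapped slightly in counting error. The precursors of miR-470 and miR-878 were at 99.5% to 100% of 5p reads in every sample and overlapped between the groups (exact permutation p = 0.4 and p = 1, n = 3 per group).

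A fit over all precursors set this change against a background. With edgeR's diffSpliceDGE, which tests whether the 2 arms of a precursor change unequally, miR-871 had the second smallest p of the 40 precursors whose arms both passed the filter (edgeR adjusted p = 7.2e-05). Leaving out each sample in turn, the adjusted p of miR-871 in this edgeR fit was between 2.3e-06 and 0.0051. The test was added after the shares had been seen. Unequal change of the arms was common in these libraries. Of the 40 precursors, 32.5% were called in either direction and 12.5% were called with a higher 5p share in stress samples. The 5p shares did not overlap between the groups in 57.5% of the precursors, and in 32.5% they did not overlap and were higher in stress samples. Single reads of miR-871-5p may be shared with the near-copy miR-743a-5p, since the table gave 15.5 reads to miR-871-5p and 55.5 to miR-743a-5p in normal replicate 1, the sole fractional value among the members. miR-743a-5p itself was at 66.9, 30.2 and 31.5 CPM (TMM-scaled) in normal and at 25.2, 24.8 and 22.3 CPM in stress replicates, and did not pass (log2 fold change −0.81 ± 0.37, edgeR adjusted p = 0.16).

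**Figure D4:**
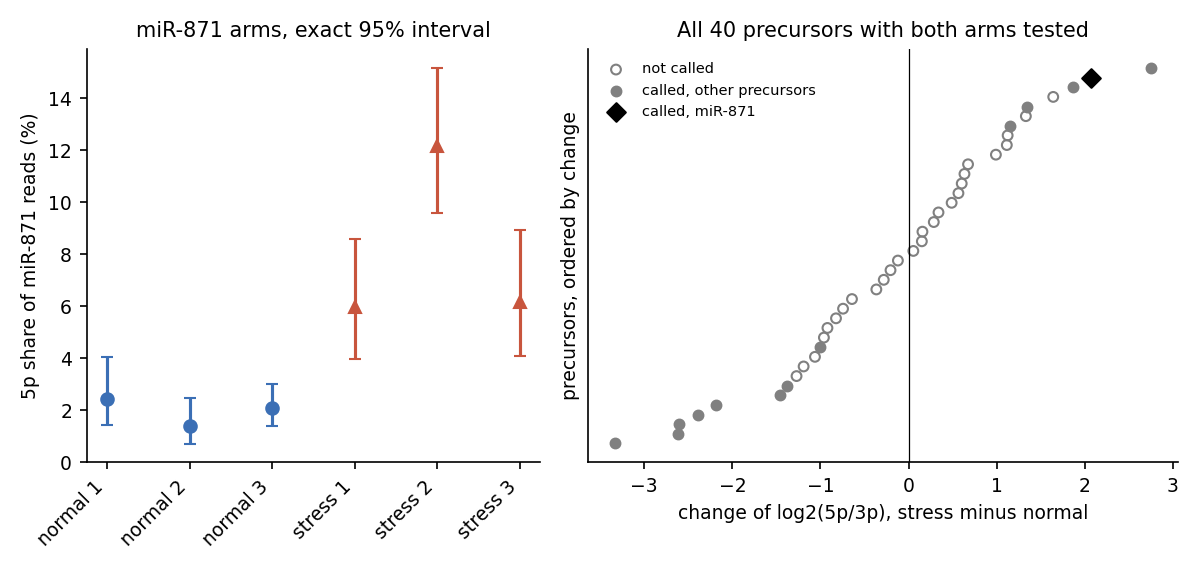
Left, the 5p share of miR-871 reads in percent in each sample, with the exact 95% counting interval. Right, the change of log2(5p/3p), stress minus normal, in the 40 precursors with both arms tested, ordered by size, with filled marks for those called in edgeR and a diamond for miR-871 at 2.07. The 3 stress samples lie between 5.99% and 12.2%, above the normal samples at 1.39% to 2.44%.

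Whether the members fell depended on the scaling, and none of the scalings used measures an absolute amount. The TMM factors were 0.683 to 0.860 in normal and 1.24 to 1.38 in stress samples, so they separated the groups. With each library's total miRNA reads as its size instead, the median of all tested features moved from 0.00063 to 0.76. miR-871-3p was then at −0.61 ± 0.29 and not called (edgeR adjusted p = 0.11), miR-881-3p was at −0.13, miR-878-5p at −0.08 and miR-470-5p at 0.03, while miR-871-5p at 1.55 ± 0.40 and miR-883a-3p at 1.83 ± 0.53 were called higher (edgeR adjusted p = 0.012 and 0.020). With this scaling 40.7% of all tested features were called higher and 4.24% lower. Taking off the shifted median gives −1.37 for miR-871-3p, −0.89 for miR-881-3p, −0.84 for miR-878-5p and −0.73 for miR-470-5p, which is close to the TMM values by arithmetic, since a library size shifts all features nearly alike. Another scaling used the reads of PIWI-interacting RNAs (piRNAs), which are made in germ cells, as the library size. With it the SE grew to 0.67 to 0.88, miR-871-3p was at −1.08 ± 0.71 (edgeR adjusted p = 0.94), and 0 members were called or had an unadjusted p under 0.05, beside 2.54% of all tested features called. The median of all tested features was then 0.13, and relative to it miR-871-3p was at −1.21, miR-881-3p at −0.72, miR-878-5p at −0.61 and miR-470-5p at −0.57. The plot of scalings shows miR-871-3p as the lowest of the 6 under all 4. Its place was nearly fixed by the same arithmetic, so it is not a separate result of each scaling. The 2 scarce members stayed above 0 under all 4. For miR-883a-3p this direction was partly set by the filter on low counts, which it passed only through the stress samples.

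**Figure D5:**
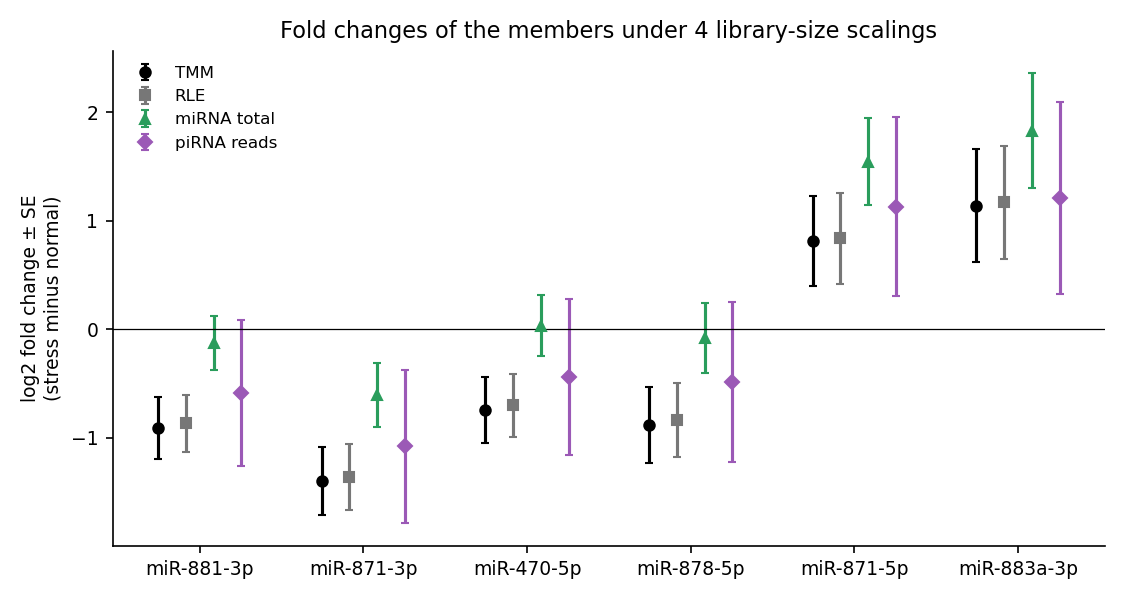
Log2 fold change, stress minus normal, with its SE for the 6 tested members under 4 library-size scalings in edgeR (TMM, RLE, the total of miRNA reads and the reads of the piRNA table). miR-871-3p lies between −1.40 and −0.61, and miR-470-5p changes sign with the miRNA total, at 0.03.

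As a share of all miRNA reads the members together took 0.425%, 0.585% and 0.387% in normal and 0.436%, 0.454% and 0.369% in stress replicates. The groups overlapped, with means of 0.466% ± 0.105 (SD, n = 3) and 0.419% ± 0.045. Of the miRNA reads left after taking out let-7 and miR-148a-3p, which dominate these libraries, the members took 1.67%, 2.25% and 1.43% in normal and 1.15%, 1.17% and 0.915% in stress replicates, without overlap. The removed features include let-7b-5p (−2.27), let-7c-5p (−1.86) and miR-148a-3p (−0.87), all called lower in stress samples by edgeR. Some others, such as let-7g-5p at 0.45, went the other way and were not called. Removing reads that fell enlarges the remainder in stress samples, so this separation is partly arithmetic. For every 1000 piRNA reads there were 62.6, 85.4 and 137.8 member reads in normal and 45.2, 90.5 and 51.3 in stress replicates, with overlap and with normal replicate 3 highest. In such bulk samples, fewer cells that carry these miRNAs and less of them per cell cannot be told apart.

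The rest of the X-linked cluster was read from the same fit. Of 12 further miRNA names, 9 were in the table with 15 features, and 9 features were tested. By edgeR 2 of the 9 fell, beside 10.2% of all tested features, and 0 rose, beside 2.54%. At an unadjusted p under 0.05 the same 2 were lower, beside 19.1%, and 0 were higher, beside 13.1%. DESeq2 also gave 2 lower, beside 12.7%, and 0 higher, beside 7.2%. The median was −0.29. The fallers were miR-743b-5p (50.1 ± 13.4 CPM in normal and 19.3 ± 5.81 CPM in stress samples, SD, n = 3, log2 fold change −1.34 ± 0.36, edgeR adjusted p = 0.032) and the row that the table gives jointly to the 3p arms of miR-465a, miR-465b and miR-465c (572.5 ± 295.2 and 230.2 ± 61.1 CPM, −1.31 ± 0.38, edgeR adjusted p = 0.044). Leaving out normal replicate 1, normal replicate 2 or stress replicate 3 removed both calls, and leaving out stress replicate 1 or 2 removed 1 of them. The most abundant of these features, miR-465b-5p and miR-465c-5p, were at −0.59 ± 0.28 and −0.29 ± 0.28 and did not pass (edgeR adjusted p = 0.16 and 0.51). The balance of arms in miR-743b differed in the opposite direction from that in miR-871, with a 5p share of 38.8% to 40.9% in normal and 15.9% to 24.6% in stress samples (edgeR diffSpliceDGE adjusted p = 0.028).

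Markers of the cells that a sperm preparation can hold were read beside the members. All 5 listed miRNAs of male germ cells were in the table, but miR-449b and miR-449c summed to 0.5 and 1 read over the 6 samples. Most reads of the germ-cell list were miR-34c, with 4940 over the 6 samples against 934.5 for miR-34b and 44 for miR-449a. The list summed to 399.2 to 891.7 TMM-scaled CPM in normal and 558.0 to 741.1 in stress samples. Of its 4 tested features, 0 passed in edgeR or had an unadjusted p under 0.05. Without TMM the same sum was 308.3 to 609.3 CPM in normal and 768.2 to 955.1 CPM in stress samples, without overlap. Epididymal epithelial markers (9 features, 8 of them present in every sample) summed to 18080 to 21961 CPM in normal and 21840 to 24826 CPM in stress samples with TMM, with a small overlap, and 0 of 7 tested passed or had an unadjusted p under 0.05. Without TMM they summed to 12354 to 17474 and 28908 to 31999 CPM, without overlap. Markers of smooth muscle, stroma and endothelium (9 features, 8 present in every sample, mostly reads of miR-143) summed to 3443 to 6736 and 7221 to 7984 CPM with TMM. Of 7 tested, 2 were called higher in edgeR, beside 2.54% of all tested features. Without TMM they summed to 2660 to 4955 and 9307 to 10859 CPM. Leukocyte markers (8 features, 4 present in every sample) summed to 517.5 to 947.1 and 1051 to 1376 CPM with TMM, and to 359.9 to 814.1 and 1355 to 1894 CPM without it. That sum was mostly miR-146a, with 7106 reads over the 6 samples against 1516 for miR-150, the next. In edgeR 0 of the 5 tested leukocyte features passed. Of these, 3 had an unadjusted p under 0.05 and a higher mean in stress samples, beside 13.1% of all tested features. The other 2 (miR-142a-3p at −0.76 and miR-223-5p at −0.69) had lower means. Red blood cell markers (6 features, 3 present in every sample) summed to 396.4 to 1318 and 194.9 to 634.2 CPM with TMM and to 340.7 to 1018 and 268.3 to 817.5 CPM without it. Of 3 tested, 0 passed in edgeR and 2 were lower at an unadjusted p under 0.05, beside 19.1% of all tested features. No listed marker name was at 0 in every sample. The stromal sum and the leukocyte sum, the latter carried by miR-146a, did not overlap between the groups and were higher in stress samples. Among all tested single features, 39.4% did not overlap, in either direction. The part of these cells in the member differences was not tested.

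The features whose levels ran most like the members were found from the mean centred log2 CPM of the 4 abundant members, which was 0.38, 1.03 and −0.02 in normal and −0.39, −0.38 and −0.62 in stress replicates. Over the 6 samples the highest Pearson correlations outside the 8 names were those of miR-122-5p (r = 0.96), miR-184-3p (r = 0.95) and miR-200a-5p (r = 0.95), and the lowest those of miR-16-5p (r = −0.99) and miR-1291 (r = −0.98). These are descriptions picked from 230 features over 6 samples that share the same group difference and scaling. miR-122-5p, a miRNA of liver, had its highest level in normal replicate 2 (2416 CPM against 343.0 and 124.4 in the other normal replicates), the sample in which the members were also highest.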

How the data were processed

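Small RNA of 6 sperm samples was analysed. Per the labels' protocols, the RNA was isolated by Trizol and an Illumina TruSeq kit served for the libraries. Bowtie is named in the submitters' processing notes, without a version. Genome build, read filters and counting rule were not stated in the sources used here. The values deposited for miRNAs are expected counts (92.0% of them whole within 0.001). The values deposited for piRNAs are RPM relative to the total of that table, and 72652 to 100913 reads per sample make all its values whole within 0.001. The table of tRNA fragments was not used.

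Groups came from the disease-state labels and replicate numbers from the titles. After rounding, the expected counts went into edgeR 4.0.16 under R 4.3.3 (filterByExpr, minimum count 10, TMM, glmQLFit, glmQLFTest), with Benjamini-Hochberg adjustment over 236 features and a threshold of 0.05. The SE is the fold change divided by the square root of F. Alternatives used RLE, DESeq2 1.42.0, other library sizes, no filter, a replicate block, correction for G and GC content, and leaving out samples. Log2 ratios of arms used 0.5 reads as pseudocount. On simulated data with 4-fold changes, edgeR recovered 97.4% of 78 changed features among 270 tested, and diffSpliceDGE recovered 8 of 8 precursors changed 6-fold among 40. Both simulations used a fixed dispersion. The edgeR simulation changed as many features up as down, without the group separation of TMM factors seen here. The rates therefore do not give the power in these libraries. Named were all member features, the 3 features with the highest and the 2 with the lowest Pearson correlation with them, and the called and the 2 most abundant features of the rest of the cluster. The near-copy miR-743a-5p and the arms of miR-743b were added after their values were seen. The members, lists and tests were chosen with earlier results of these data known.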

Additional observations from a re-analysis of the deposited data

How the results depend on the processing

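The number of members called lower, 1 with TMM, was 2 with RLE, 2 with DESeq2, 2 without a filter, 2 with the replicate block, 2 with the G and GC correction and 3 with the replicate block and that correction together. It was 0 with the miRNA total or the piRNA reads as library size (edgeR, 0 lower at unadjusted p under 0.05 in both), and 0 to 3 when single samples were left out. Of all 236 tested features, 24 were called lower with TMM, 28 with RLE, 30 with DESeq2 and 21 with the replicate block. The same count was 31 with the G and GC correction, 35 with block and correction, 10 with the miRNA total and 3 with the piRNA reads. Without a filter 30 of 775 were called lower. Without single samples it ranged from 13 of 246 (without stress replicate 3) to 33 of 255 (without normal replicate 3). Members called higher numbered 2 with the miRNA total, among them miR-883a-3p, which passed the filter only through the stress samples. Among the other X-linked features, calls in the lower direction went from 2 to 1 with the replicate block, to 0 with the miRNA total and to 0 with the piRNA reads, and to 0 to 2 without single samples, and 2 were higher with the miRNA total. miR-470-5p changed sign with the miRNA total (0.033). The log2 ratio of the members' summed share, stress to normal, was −0.15, and between −0.27 and 0.05 without single samples. It moved to −0.73 without let-7 and miR-148a-3p in the denominator, several of which were themselves called lower. Against piRNA reads it moved to −0.61. The log2 change of the 5p to 3p ratio of miR-871 was 2.07, a single value that passed with diffSpliceDGE but not with the exact test, and 1.71 to 2.26 without single samples. Without single samples the ratio of miR-878-5p to miR-881-3p ranged from −0.063 to 0.19 and that of miR-878-5p to miR-470-5p from −0.26 to 0.035, so both changed sign. Causes of these shifts were not tested. Calls over all features in either direction numbered 30 with TMM, 44 with RLE, 47 with DESeq2 and 106 with the miRNA total (96 higher). They numbered 6 with the piRNA reads, 49 without a filter, 42 with the G and GC correction and 52 with the block and correction together. Without single samples they numbered 17 to 55.

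The labels do not say whether replicate numbers pair the samples. Same-numbered deviations from the group means correlated at 0.11, −0.21 and 0.12. The highest correlation was that of normal replicate 3 with stress replicate 2 (0.24). With 3 samples per group these values cannot decide whether the samples were paired. The replicate block gave 28 calls over all features, and with it miR-881-3p was at −0.87 (edgeR adjusted p = 0.034). A minimum of 10 reads for arm shares added no precursor, and the planned scaling to the sum of all 3 tables was not run because the reads of the tRNA fragment table could not be recovered uniquely. Depth limits miR-880-3p, miR-463-5p, miR-883b-3p, miR-463-3p, miR-470-3p and miR-878-3p, which had 61 reads or fewer each over the 6 samples.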
